A study of Mus musculus with 18 samples.

Results

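Dmrt5 and Dmrt3 are doublesex-related zinc finger transcription factors made by progenitor cells of the embryonic cerebral cortex, and the set of genes described here is what changed when Dmrt5 was lost in cortex that already lacked Dmrt3. The 5 libraries labelled Dmrt3;Dmrt5 KO (genotype Dmrt3-/-;Dmrt5-/-, called the double KO below) were set against the 5 labelled Dmrt3 KO (Dmrt3-/-), which makes 10 of the 18 libraries of the series. All were RNA-seq libraries of dissected cortical tissue from C57BL/6 mouse embryos at stage E12.5, and both groups lack Dmrt3. The other 8 libraries, 4 of Dmrt5 KO (Dmrt5-/-) and 4 of wild type (WT), entered the same statistical fit, where they add to its estimate of the spread between libraries, and show the effect of the same loss with Dmrt3 present. The labels describe neither the mutant alleles nor the embryos or litters behind each library, so a p-value is relative to the spread among these libraries, which may be technical in part.

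The telencephalon is divided early into a dorsal part, the pallium, which forms the cortex and hippocampus and whose progenitors make glutamatergic neurons, and a ventral part, the subpallium, whose ganglionic eminences make GABAergic neurons. At the medial edge of the pallium lies the cortical hem, a source of Wnt and Bmp signals that instructs the hippocampus and borders the choroid plexus. In mice, both Dmrt genes are expressed in a gradient that is highest medially, near the hem, and they are known to act on pallial identity and on hem formation.

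The targeted transcripts were examined first. The gene named Dmrt5 in the labels carries the symbol Dmrta2 (mm10 chr4:109978053-109983687, plus strand). Its normalised read count was 1.66, 4.16, 4.36, 4.9 and 2.65 CPM (counts scaled to library size) in the double KO libraries, against 295, 155, 247, 205 and 193 CPM in the Dmrt3 KO libraries. The groups lay far apart, with a 61.6-fold lower fitted level in the double KO (log2 fold change -5.95 ± 0.46 SE, adjusted p = 4.01e-07). Each count covers all exons of a gene, so reads from any exon that a mutant allele retains would be included. Dmrt3 (chr19:25610301-25623921) was near 0 in both groups, with 0, 0, 2, 9 and 8 counts in the double KO libraries and 6, 9, 6, 10 and 7 counts in the Dmrt3 KO libraries, and was not called (adjusted p = 0.381). The related gene Dmrta1 was at 52.2 ± 14.2 CPM in the double KO and 52.1 ± 9.15 CPM in Dmrt3 KO (SD, n = 5 each), with an adjusted p of 0.996. Dmrt1 (chr19:25505618-25604329), the neighbour of Dmrt3 and a gene best known for its role in the testis, fell to 2.45, 2.51, 3.91, 3.49 and 2.93 CPM in the double KO, against 11.3, 12.5, 11.7, 10.2 and 9.4 CPM in Dmrt3 KO. No library of either group crossed into the range of the other, and the log2 fold change of Dmrt1 was -1.84 ± 0.18 (adjusted p = 6.29e-06). Dmrt1 averaged 3.06 CPM in the double KO, near its means of 2.6 CPM in Dmrt5 KO and 3.32 CPM in WT. The mean that stood apart was that of Dmrt3 KO, at 11 CPM.

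The 250 bases before the start of Dmrta2 are shown because they hold matches to the core of the motif that doublesex-related factors bind. The sequence is from RefSeq (GRCm38.p6, the assembly of mm10), at chr4:109977775-109978024 on the plus strand, written 5′ to 3′, with matches to the letters ACANTGT in capitals.
Dmrta2: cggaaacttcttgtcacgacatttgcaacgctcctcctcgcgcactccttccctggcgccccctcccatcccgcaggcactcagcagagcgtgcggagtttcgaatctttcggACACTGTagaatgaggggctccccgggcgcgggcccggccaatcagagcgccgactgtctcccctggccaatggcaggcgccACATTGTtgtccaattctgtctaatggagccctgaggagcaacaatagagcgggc
The 2 matches begin 137 and 55 bases before the RefSeq start, and the bases after that start were not found in annotated transcripts of Dmrta2. The letters read the same on both strands, so each match was counted once. Over windows of the same length, 17 of 317 promoters of genes lower in the double KO (5.36%) and 8 of 281 promoters of genes higher in it (2.85%) held the motif, against 532 of 15048 promoters of all tested genes (3.54%). These windows come from the 235 lower, 210 higher and 11757 tested genes with a promoter in the table used, and a match is a description of the letters, not a binding site.

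Across the transcriptome the loss of Dmrt5 without Dmrt3 was followed by rises and falls in similar numbers, and the largest changes were falls. A gene was called when its p-value from edgeR's quasi-likelihood test, adjusted with the Benjamini-Hochberg method over all 16236 tested genes, was under 0.05. By this measure 282 genes (1.74%) were higher in the double KO and 318 (1.96%) were lower, together 600 or 3.7% of the tested genes. Changes of more than 2-fold numbered 144 rises and 236 falls, and changes of more than 4-fold numbered 14 rises and 94 falls. The median log2 fold change was 1.01 among the called rises, -1.44 among the called falls and 0.01 over all tested genes. In 457 of the 600 called genes (76.2%) the 5 and 5 libraries did not overlap, which was the case for 4.8% of all tested genes. Without double KO replicate 4 the counts were 555 higher and 882 lower. Without Dmrt3 KO replicate 1, Dmrt3 KO replicate 5 or double KO replicate 5 the number of higher genes was 167, 180 or 175. A fit of only these 10 libraries called 148 higher and 210 lower.

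**Figure D1:**
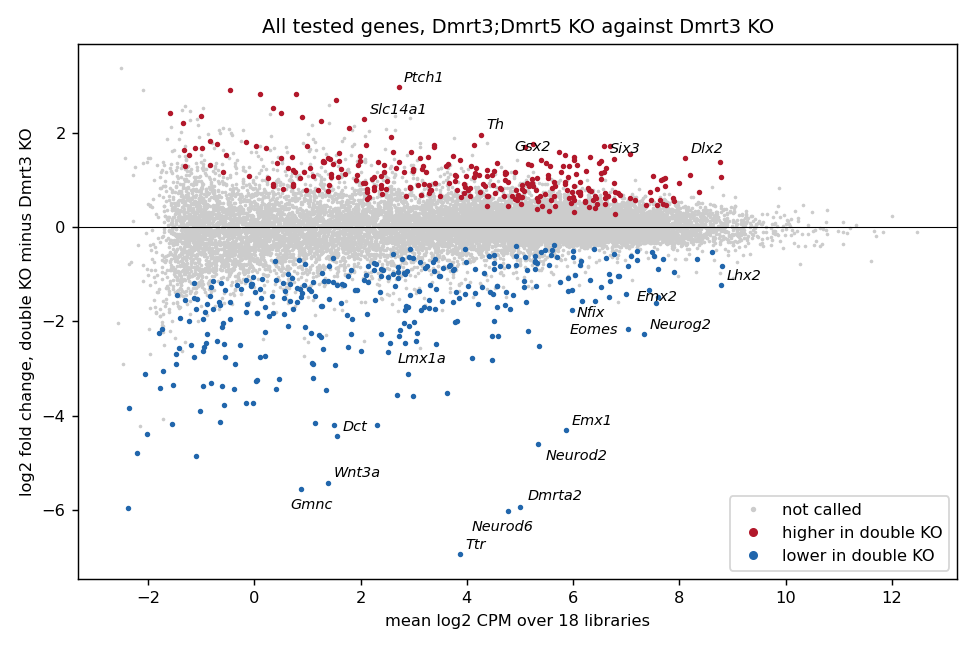
Each point is a tested gene, with its mean log2 CPM over the 18 libraries on the horizontal axis and its log2 fold change, double KO minus Dmrt3 KO, on the vertical axis. The 282 red and 318 blue points are the called genes, and the falls reach further from 0 than the rises, with Ttr at -6.94 and Ptch1 at 2.97.

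Libraries differed in their content of connective tissue. The total was between 21170996 and 28053772 counts in these 10 libraries. The summed level of 11 mesenchyme markers, such as the collagens Col1a1 and Col3a1, was 375, 169, 165, 2180 and 68.9 CPM in double KO replicates 1 to 5, against 1010, 593, 1040, 1010 and 2820 CPM in Dmrt3 KO replicates 1 to 5. All but 1 double KO library thus held less of it than any Dmrt3 KO library, and all 11 markers had a log2 fold change under 0 (median -1.05), though edgeR called none; for the most significant of them, Dcn, the adjusted p was 0.158. With the mesenchyme score of each library (mean log2 CPM of the 11 markers) as a covariate, 89 genes were higher and 201 lower, and 74 of the 282 rises and 180 of the 318 falls remained called; all 600 kept their direction. The sums of 9 endothelial markers ran from 168 to 395 CPM in the double KO and from 260 to 402 CPM in Dmrt3 KO, those of 10 erythroid markers from 1290 to 5810 and from 3680 to 9000 CPM, and those of 9 microglial markers from 32.4 to 89.3 and from 69 to 116 CPM. No member of the endothelial, erythroid, microglial or surface ectoderm lists was called, and their median log2 fold changes were -0.52, -0.67, -0.47 and -0.48. An unadjusted p under 0.05 was found for 2 mesenchyme, 4 endothelial, 2 erythroid, 1 microglial and 3 surface ectoderm markers, and DESeq2 called 1 endothelial and 1 surface ectoderm marker. Without double KO replicate 4, 9 mesenchyme, 5 endothelial and 2 surface ectoderm markers were called lower. The part of these cells in the results below was not tested beyond the covariate. In whole tissue, fewer cells of a type and less RNA per cell cannot be told apart.

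**Figure D2:**
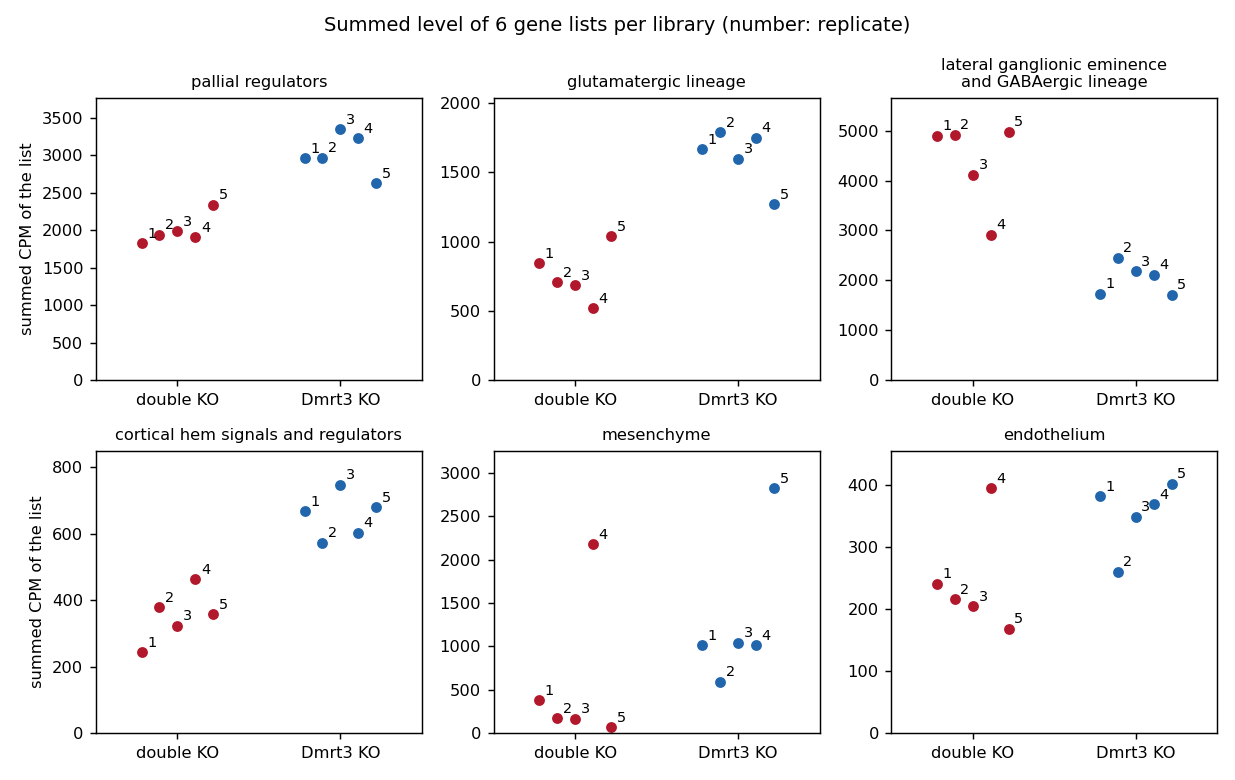
Summed CPM of 6 gene lists in each library (points, numbered by replicate), with the double KO left of Dmrt3 KO in each panel. The lists of pallial regulators, glutamatergic lineage, lateral ganglionic eminence and cortical hem separate the groups without overlap, while the mesenchyme sum ran from 68.9 to 2180 CPM in the double KO and from 593 to 2820 CPM in Dmrt3 KO.

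Most regulators of pallial identity lost part or nearly all of their transcript. Of 16 tested members of the list, 9 fell (Emx1, Emx2, Lhx2, Fezf2, Neurog1, Neurog2, Tfap2c, Otx1 and Lef1) and 1 rose (Pax6), against 1.96% and 1.74% of all tested genes, and the median log2 fold change was -1.03. This list and those below were chosen with earlier results of these data known, so such counts are no independent support. Emx1, a homeobox gene of pallial progenitors and neurons, was nearly absent, at 12.4, 7.99, 9.83, 7.75 and 4.6 CPM in the double KO, against 236, 164, 149, 143 and 151 CPM in Dmrt3 KO. That is a 19.9-fold lower level with no overlap (log2 -4.31 ± 0.26, adjusted p = 2.8e-08). Emx2, its paralog, which patterns caudomedial cortex, kept more of its transcript, at 51.2, 76.2, 71.0, 86.7 and 49.8 CPM in the double KO, against 173, 139, 191, 196 and 199.7 CPM in Dmrt3 KO. The groups again did not overlap (log2 -1.42 ± 0.16, adjusted p = 3.54e-05). Its antisense neighbour Emx2os cannot be told apart from it in the overlap, since the library kit does not mark strand. Lhx2, the LIM-homeobox selector gene of the cortex, stood at 212, 303, 279, 269 and 220.1 CPM in the double KO, against 659, 513, 618, 628 and 589 CPM in Dmrt3 KO, so that every double KO library was below every Dmrt3 KO library (log2 -1.23 ± 0.11, adjusted p = 2.52e-06).

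The zinc finger gene Fezf2, which specifies subcortically projecting neurons, averaged 28 ± 3.8 CPM in the double KO and 94.5 ± 12.4 CPM in Dmrt3 KO (SD, n = 5 each; log2 -1.75 ± 0.12, adjusted p = 1.26e-07). Tfap2c, an AP-2 factor of cortical progenitors, averaged 32.3 ± 5.74 CPM in the double KO and 82.2 ± 17.7 CPM in Dmrt3 KO (log2 -1.35, adjusted p = 3.39e-05), and Otx1, a homeobox gene of the dorsal forebrain, 61.9 ± 13.9 and 137 ± 16.2 CPM (log2 -1.15, adjusted p = 8.85e-05). These 3 genes showed no overlap between groups. Pax6, which is expressed in pallial progenitors in a gradient highest laterally, went the other way, at 287, 275, 283, 290.4 and 459 CPM in the double KO, against 196, 192, 211, 245 and 189.6 CPM in Dmrt3 KO (log2 0.62 ± 0.14, adjusted p = 0.0168). Double KO replicate 5 was far above the rest of its group. The Pax6 call was lost without Dmrt3 KO replicate 1 (adjusted p = 0.0507) or Dmrt3 KO replicate 5 (0.0511), in the fit of the 10 libraries (0.0619) and with the mesenchyme covariate (0.277). The call for Lef1 (log2 -0.92, adjusted p = 0.0457), a transcription factor of the Wnt pathway, was lost without any 1 library other than double KO replicate 4 (adjusted p from 0.0551 to 0.119). Gli3, which represses ventral fates, had a log2 fold change of -0.09 (adjusted p = 0.79).

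**Figure D3:**
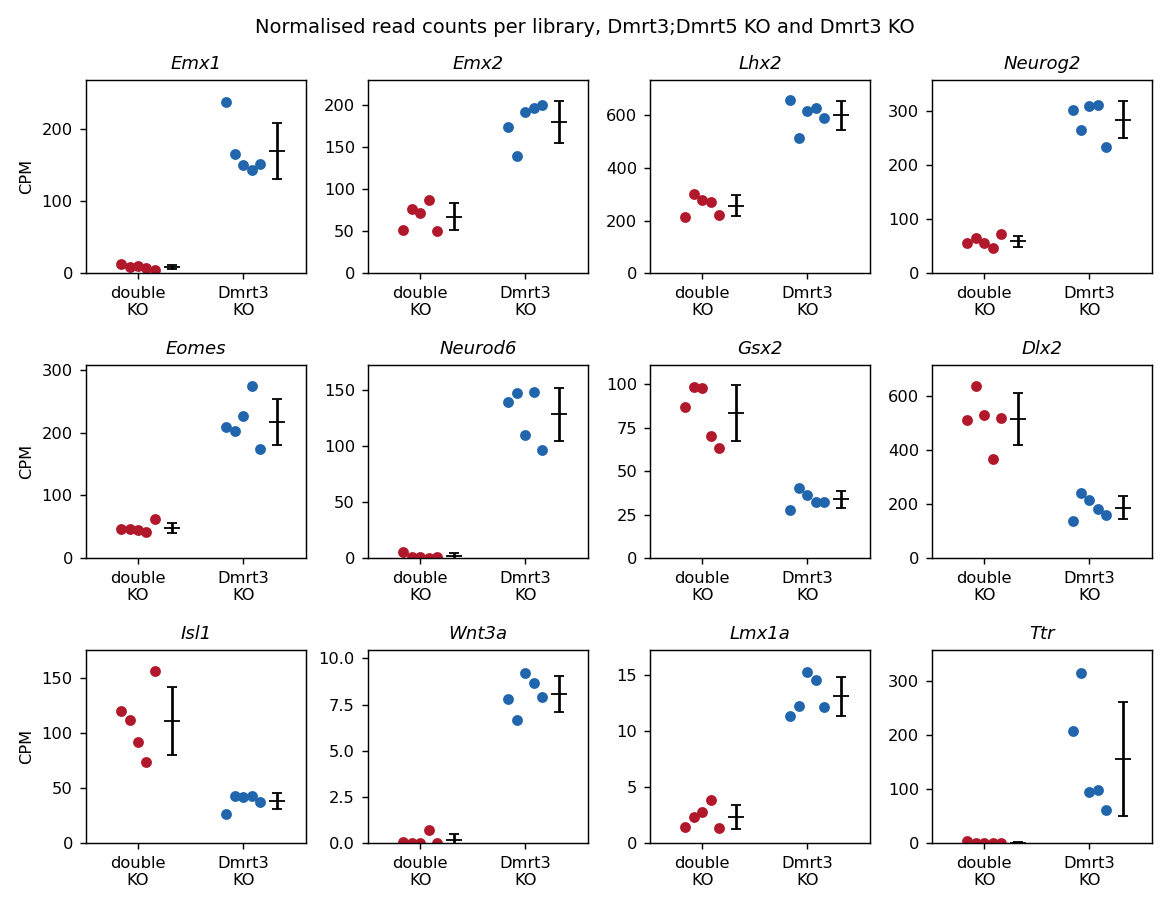
Normalised read counts (CPM, linear axes from 0) of 12 genes in the 5 double KO libraries (red, left) and the 5 Dmrt3 KO libraries (blue, right), with mean and SD beside them. In all 12 panels the groups do not overlap: Gsx2, Dlx2 and Isl1 were higher in the double KO, and the other 9 were lower. For Neurod6 the lack of overlap was a condition of naming it.

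The proneural genes that start the glutamatergic lineage, and the genes of the neurons it makes, fell together. Neurog2, the main proneural gene of the pallium, was at 55.4, 64.3, 54.9, 47.1 and 72.8 CPM in the double KO, against 302, 265, 308, 311 and 233 CPM in Dmrt3 KO. The fall was 4.82-fold with no overlap (log2 -2.27 ± 0.16, adjusted p = 1.19e-07), and Neurog1 fell 3.16-fold (log2 -1.66, adjusted p = 0.000122). Of 20 tested members of the glutamatergic lineage list, 11 fell and none rose, against 1.96% and 1.74% of all tested genes. The median log2 fold change of the list was -1.02. Without any 1 library 11 or 12 were lower, and 12 were lower with the mesenchyme covariate.

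Eomes, the T-box gene of intermediate progenitors, was at 46.6, 47.1, 45.1, 42.4 and 62.3 CPM in the double KO, against 209, 203, 227, 274 and 173 CPM in Dmrt3 KO (log2 -2.16 ± 0.16, adjusted p = 3.08e-07). Tbr1, which follows it in newborn neurons, fell less, to 127 ± 40 CPM in the double KO, against 234 ± 26.3 CPM in Dmrt3 KO (SD, n = 5 each; log2 -0.89, adjusted p = 0.0067); its highest double KO value of 195.6 CPM lay just below the lowest Dmrt3 KO value of 195.8 CPM. Among the basic helix-loop-helix genes of neuronal differentiation, 4 fell by more than 4-fold, while Neurod4 and Nhlh2 were not called (log2 -0.32 and -0.36, adjusted p 0.48 and 0.369). Neurod6, a marker of pyramidal neurons, was at 6.02, 0.87, 0.98, 0.64 and 1.48 CPM in the double KO, against 139, 148, 109.8, 149 and 97.0 CPM in Dmrt3 KO, which is 65.2-fold lower (log2 -6.03 ± 0.61, adjusted p = 9.42e-06). Neurod2 averaged 5.24 ± 2.9 CPM in the double KO and 127 ± 25.7 CPM in Dmrt3 KO, 24.3-fold lower (log2 -4.61 ± 0.43, adjusted p = 4.27e-06). Neurod6 and Neurod2 were named by a rule that required groups without overlap, so their lack of overlap is no further result. Nhlh1, which is switched on as progenitors leave the cell cycle, averaged 12.8 ± 2.46 and 73.7 ± 7.53 CPM (log2 -2.53 ± 0.15, adjusted p = 1.64e-08), and Neurod1 7.67 ± 1.46 and 38.2 ± 10.3 CPM (log2 -2.31, adjusted p = 7.74e-07).

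Genes of the glutamatergic phenotype itself also fell. Slc17a7, the vesicular glutamate transporter of cortical neurons, averaged 2.45 ± 0.281 CPM in the double KO and 28.2 ± 5.67 CPM in Dmrt3 KO (log2 -3.52 ± 0.23, adjusted p = 6.59e-08), and the synaptic vesicle gene Sv2b 0.385 ± 0.237 and 7.06 ± 1.38 CPM (log2 -4.19, adjusted p = 5.54e-06). The groups did not overlap in either gene, which for Sv2b was a condition of naming it. Rnd2, a GTPase that Neurog2 activates in migrating neurons, fell 2.79-fold (log2 -1.48, adjusted p = 0.00259), Bhlhe22 3.98-fold (adjusted p = 0.00512) and the neurite gene Nrn1 2.23-fold (adjusted p = 0.000101). The 9 members not called included Slc17a6, the other glutamate transporter, at log2 -0.61 (adjusted p = 0.221), and the projection neuron regulators Bcl11b and Sox5 at 0.42 and 0.43 (adjusted p 0.458 and 0.27). With the mesenchyme covariate Slc17a6 was called lower (log2 -1.08, adjusted p = 0.0308).

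The promoter windows of Neurog2 and of 2 of the strongly reduced helix-loop-helix genes are shown because factors of the Neurog and Neurod kind bind the E-box CAGATG. They are the 250 bases before the start from RefSeq (GRCm38.p6), written 5′ to 3′ on the strand of the gene, with matches to CAGATG in capitals: Neurog2 at chr3:127632886-127633135 (plus strand), Neurod2 at chr11:98329646-98329895 (minus strand) and Nhlh1 at chr1:172057597-172057846 (minus strand).
Neurog2: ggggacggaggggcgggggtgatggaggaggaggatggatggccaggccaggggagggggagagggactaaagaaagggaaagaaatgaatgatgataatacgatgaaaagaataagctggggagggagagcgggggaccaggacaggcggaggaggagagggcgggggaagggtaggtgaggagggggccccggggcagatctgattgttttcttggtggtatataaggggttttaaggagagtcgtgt
Neurod2: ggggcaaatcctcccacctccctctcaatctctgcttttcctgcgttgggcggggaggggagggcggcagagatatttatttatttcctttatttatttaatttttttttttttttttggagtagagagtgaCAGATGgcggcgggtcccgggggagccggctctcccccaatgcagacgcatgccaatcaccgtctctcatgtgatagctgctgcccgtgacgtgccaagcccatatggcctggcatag
Nhlh1: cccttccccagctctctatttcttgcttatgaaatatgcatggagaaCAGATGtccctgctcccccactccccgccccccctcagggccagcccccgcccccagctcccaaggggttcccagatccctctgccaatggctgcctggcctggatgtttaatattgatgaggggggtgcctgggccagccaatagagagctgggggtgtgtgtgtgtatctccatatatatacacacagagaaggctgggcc
The match begins 118 bases before the RefSeq start in Neurod2 and 203 bases before it in Nhlh1, and Neurog2 holds 0 matches on either strand. The bases after the RefSeq start were found in annotated transcripts of Neurog2 and Neurod2, but not of Nhlh1. On both strands CAGATG was found in 36 of 317 promoters of lower genes (11.4%) and 23 of 281 promoters of higher genes (8.19%), against 1558 of 15048 promoters of all tested genes (10.4%). The homeodomain core TAATTA was found in 12 promoters of lower genes (3.79%) and 11 of higher genes (3.91%), against 388 of all tested genes (2.58%).

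Genes of the subpallium rose in the same libraries. The lateral and medial ganglionic eminence lists also mark neighbouring tissue that a cortical dissection can hold, and the Dmrt3 KO libraries held their transcripts too. The part of such tissue in the rises was not tested. In the list of the lateral ganglionic eminence and GABAergic lineage, 17 of 25 tested members rose and none fell, against 1.74% and 1.96% of all tested genes. The median log2 fold change of the list was 1.23. Gsx2, the homeobox gene that specifies lateral ganglionic eminence progenitors, was at 86.7, 98.2, 98.0, 70.1 and 63.3 CPM in the double KO, against 27.5, 40.6, 36.5, 32.5 and 32.5 CPM in Dmrt3 KO (log2 1.29 ± 0.20, adjusted p = 0.000892). Dlx2, a homeobox gene needed for GABAergic neurons, was at 511, 636, 530.3, 368 and 519.8 CPM in the double KO, against 138, 241, 214, 182 and 160.2 CPM in Dmrt3 KO (log2 1.45 ± 0.17, adjusted p = 3.58e-05). In both genes the lowest double KO library was above the highest Dmrt3 KO library.

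The rise reached the differentiated genes of this lineage. Gad1 and Gad2, the enzymes of GABA synthesis, averaged 107 ± 37.5 and 273 ± 119 CPM in the double KO, against 35.6 ± 9.89 and 93.3 ± 21.4 CPM in Dmrt3 KO (SD, n = 5 each; log2 1.59 and 1.55, adjusted p 0.000651 and 0.00148). Isl1, a LIM-homeobox gene of striatal neurons, averaged 111 ± 31 CPM in the double KO and 38.2 ± 7.01 CPM in Dmrt3 KO (log2 1.53, adjusted p = 5.71e-05). The homeobox gene Six3 averaged 158 ± 21.9 and 62.2 ± 6.83 CPM (log2 1.35, adjusted p = 1.39e-06), although reads of its antisense neighbour Six3os1 cannot be separated from it. Dlx1, Dlx5 and Sp8 rose 2.58-fold, 2.64-fold and 2.25-fold (adjusted p 0.00108, 0.00277 and 0.00142; Dlx5 0.0583 with the mesenchyme covariate), while Meis2, which the pallium also expresses, had a log2 fold change of 0.45 (adjusted p = 0.153). Double KO replicate 4 had the lowest sum of the list in its group, 2910 CPM against 4120 to 4980 CPM in the other 4, and the Dmrt3 KO libraries ran from 1710 to 2450 CPM. Leaving out any 1 library gave 16 to 18 higher members, and the mesenchyme covariate 13.

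Markers of the medial ganglionic eminence were higher as well, with less agreement between libraries. Of 7 tested members 5 rose, against 1.74% of all tested genes, with a median log2 fold change of 1.41. Nkx2-1, the homeobox gene that specifies this eminence, was at 215, 350.5, 281, 144 and 179 CPM in the double KO, against 53.03, 156, 49.1, 15.8 and 80.7 CPM in Dmrt3 KO (log2 1.72 ± 0.42, adjusted p = 0.0252). The groups overlapped, since Dmrt3 KO replicate 2 was above double KO replicate 4. Its downstream LIM-homeobox genes Lhx6 and Lhx8 averaged 130 ± 45.8 and 77 ± 24.7 CPM in the double KO, against 48.6 ± 30.7 and 23.8 ± 16.9 CPM in Dmrt3 KO (adjusted p 0.0364 and 0.0151), and the ventral signal Shh 12.6 ± 3.6 CPM in the double KO and 4.18 ± 2.99 CPM in Dmrt3 KO (adjusted p = 0.03). Gbx1 rose by 1.30 on the log2 scale (adjusted p = 0.0103). Without Dmrt3 KO replicate 1, Gbx1 was the 1 member still called, and with the mesenchyme covariate 0 were called (adjusted p from 0.17 for Gbx1 to 0.53 for Lhx6). The fit of the 10 libraries called 1 of the 5, with adjusted p of 0.11 for Nkx2-1, 0.109 for Shh, 0.0915 for Lhx6 and 0.0678 for Lhx8. The calls of Nkx2-1 and Shh were also lost without Dmrt3 KO replicate 3 or 5 or double KO replicate 2 or 3 (adjusted p from 0.0516 to 0.0974), and that of Lhx6 without any 1 library other than Dmrt3 KO replicate 2 and double KO replicate 4 (0.0643 to 0.115).

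Part of the signature genes of the cortical hem and its derivatives fell. Of 17 tested hem genes 8 fell and none rose, against 1.96% and 1.74% of all tested genes, with a median log2 fold change of -1.42. Wnt3a, the Wnt ligand made by the hem and needed for the hippocampus, was at 0.1, 0, 0.04, 0.72 and 0.04 CPM in the double KO, against 7.8, 6.67, 9.21, 8.68 and 7.93 CPM in Dmrt3 KO. It was 42.8-fold lower in the fit (log2 -5.42 ± 0.58, adjusted p = 1.88e-05), and no double KO library came near the Dmrt3 KO range. Lmx1a, the LIM-homeobox gene that defines the hem, averaged 2.36 ± 1.04 CPM in the double KO and 13.1 ± 1.72 CPM in Dmrt3 KO (log2 -2.47 ± 0.23, adjusted p = 3.69e-06). The secreted Wnt enhancers Rspo1, Rspo2 and Rspo3 fell 4.64-fold, 6.85-fold and 7.05-fold (adjusted p 0.00214, 5.54e-06 and 1e-05), each with no overlap between groups.

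Bmp6 fell by 2.25 (adjusted p = 0.0126) and Bmp7 by 1.38 (adjusted p = 0.0235) on the log2 scale. Both are Bmp ligands of the dorsal midline, and the Bmp7 call was lost without Dmrt3 KO replicate 1 or 5 or double KO replicate 2 or 3 (0.0634 to 0.068) and in the fit of the 10 libraries (0.107). The Bmp6 call was lost with the mesenchyme covariate (0.0568). Wnt8b, a Wnt ligand of medial pallium, averaged 17.7 ± 7.79 CPM in the double KO and 42.4 ± 11.3 CPM in Dmrt3 KO (log2 -1.26, adjusted p = 0.019). Its call was lost without Dmrt3 KO replicate 3 or double KO replicate 2 or 3 (0.0512 to 0.0552) and with the mesenchyme covariate (0.175). Other dorsal midline genes that mesenchyme also expresses were not called, among them Bmp4, Msx1 and Msx2 (log2 -1.42, -1.48 and -2.36, adjusted p 0.31, 0.398 and 0.348). Msx1 stood at 70.8 CPM in double KO replicate 4, the library with much mesenchyme, and at no more than 4.06 CPM in the other 4 double KO libraries. Without double KO replicate 4, 13 hem genes were called lower, and with the mesenchyme covariate 6. Of 15 tested targets of canonical Wnt signalling 6 fell, against 1.96% of all tested genes, with a median of -0.59. Sp5, a direct Wnt target, fell to 1.38 ± 0.908 CPM in the double KO, against 16.4 ± 4.55 CPM in Dmrt3 KO (log2 -3.57, adjusted p = 1.4e-05), and Tnfrsf19 to 43.3 ± 19.9 CPM, against 128 ± 13.7 CPM (adjusted p = 0.000954). The feedback gene Axin2 was not called in edgeR (log2 -0.83, adjusted p = 0.0918), but DESeq2 called it lower (adjusted p = 0.0341). The number of Wnt targets called lower was 2 without Dmrt3 KO replicate 3 or double KO replicate 1 or 2, 10 without double KO replicate 4 and 2 with the mesenchyme covariate, and the calls of Nkd1 and Id2 (adjusted p 0.0202 and 0.0301) were among those lost.

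Choroid plexus genes were reduced, and among them was the largest fall of the named genes. Ttr, the thyroid hormone carrier secreted by choroid plexus epithelium, was at 4.65, 0.55, 0.44, 0.64 and 0.2 CPM in the double KO, against 207, 314, 94.0, 98.5 and 61.6 CPM in Dmrt3 KO. The 123-fold fall (log2 -6.94 ± 0.86, adjusted p = 8.45e-05) left a wide gap between the groups, although the Dmrt3 KO libraries also differed among themselves. Of 11 tested choroid plexus markers 6 fell and none rose, against 1.96% and 1.74% of all tested genes, with a median log2 fold change of -2.55. The folate receptor gene Folr1, the chloride channel gene Clic6, the potassium channel subunit Kcne2 and the cation channel Trpm3 fell by 3.21, 3.58, 3.73 and 2.55 on the log2 scale (adjusted p 7.96e-05, 0.000126, 0.00549 and 0.00168). Otx2, which is needed for the choroid plexus and is also made elsewhere in the forebrain, had a value of 0.40 (adjusted p = 0.295). Without double KO replicate 4, 9 of the 11 were called.

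The choroid plexus carries motile cilia, and several switch genes of multiciliated cells fell, while most other genes of the cilia list were not called. Gmnc, Mcidas and Ccno, which act in sequence to start multiciliation, averaged 0.138 ± 0.216, 0.355 ± 0.284 and 0.837 ± 0.691 CPM in the double KO, against 6.8 ± 2.35, 6.44 ± 1.29 and 15.5 ± 2.51 CPM in Dmrt3 KO (log2 -5.55, -4.15 and -4.20, adjusted p 4.04e-05, 8.97e-06 and 5.54e-06). None of the 3 overlapped between groups. Foxj1, the master regulator of motile cilia, fell 3.34-fold (adjusted p = 3.39e-05) and Deup1, which amplifies centrioles, 10.8-fold (adjusted p = 0.000385). Rsph4a and Cfap126 also fell (log2 -2.77 and -1.86, adjusted p 0.000496 and 0.000954), each with no overlap between groups. Of 20 tested members 7 fell and none rose, whichever library was left out and with the mesenchyme covariate. The shares over all tested genes were 1.96% lower and 1.74% higher in the main fit. The regulators Myb, Rfx2 and Rfx3 were not called (log2 0.05, -0.27 and 0.39, adjusted p 0.899, 0.312 and 0.317). Nor was the axonemal dynein gene Dnah5 (log2 0.73, adjusted p = 0.457), at 0.629 CPM in the double KO and 0.383 CPM in Dmrt3 KO.

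Cajal-Retzius neurons, early neurons of the cortical surface of which many arise from the hem, gave a divided picture. Trp73, a marker of the hem-derived ones, fell to 10.6 ± 2.25 CPM in the double KO, against 27.6 ± 3.01 CPM in Dmrt3 KO (log2 -1.38, adjusted p = 0.000122), and Ebf2 fell to 5.4 ± 2.83 CPM, against 16.1 ± 2.23 CPM (adjusted p = 0.00251). With Rspo3 these made 3 falls among 10 tested genes, and Cacna2d2 rose by 0.74 on the log2 scale (adjusted p = 0.0278), a call lost without Dmrt3 KO replicate 1, 2 or 5 or double KO replicate 2 or 5 (0.0612 to 0.0785). Reln, the secreted protein by which these neurons guide cortical layering, had a value of 0.34 (adjusted p = 0.454). At the opposite, lateral edge of the pallium lies the antihem, of whose 7 tested genes 2 rose and 1 fell. Beside the counts of both lists stand 1.74% higher and 1.96% lower over all tested genes. Dbx1, a homeobox gene of ventral pallial progenitors, fell to 3.6 ± 1.13 CPM in the double KO, against 11.7 ± 2.89 CPM in Dmrt3 KO (log2 -1.70, adjusted p = 9.38e-05), while the secreted Wnt antagonist Sfrp2 rose to 91.3 ± 26.5 CPM, against 48.4 ± 4.84 CPM (log2 0.92, adjusted p = 0.00398; 0.0692 with the mesenchyme covariate). The groups overlapped for Sfrp2. The second rise, that of the ligand gene Nrg1 (log2 0.67, adjusted p = 0.0449), was lost without any 1 library other than double KO replicate 4 (0.0507 to 0.118).

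**Figure D4:**
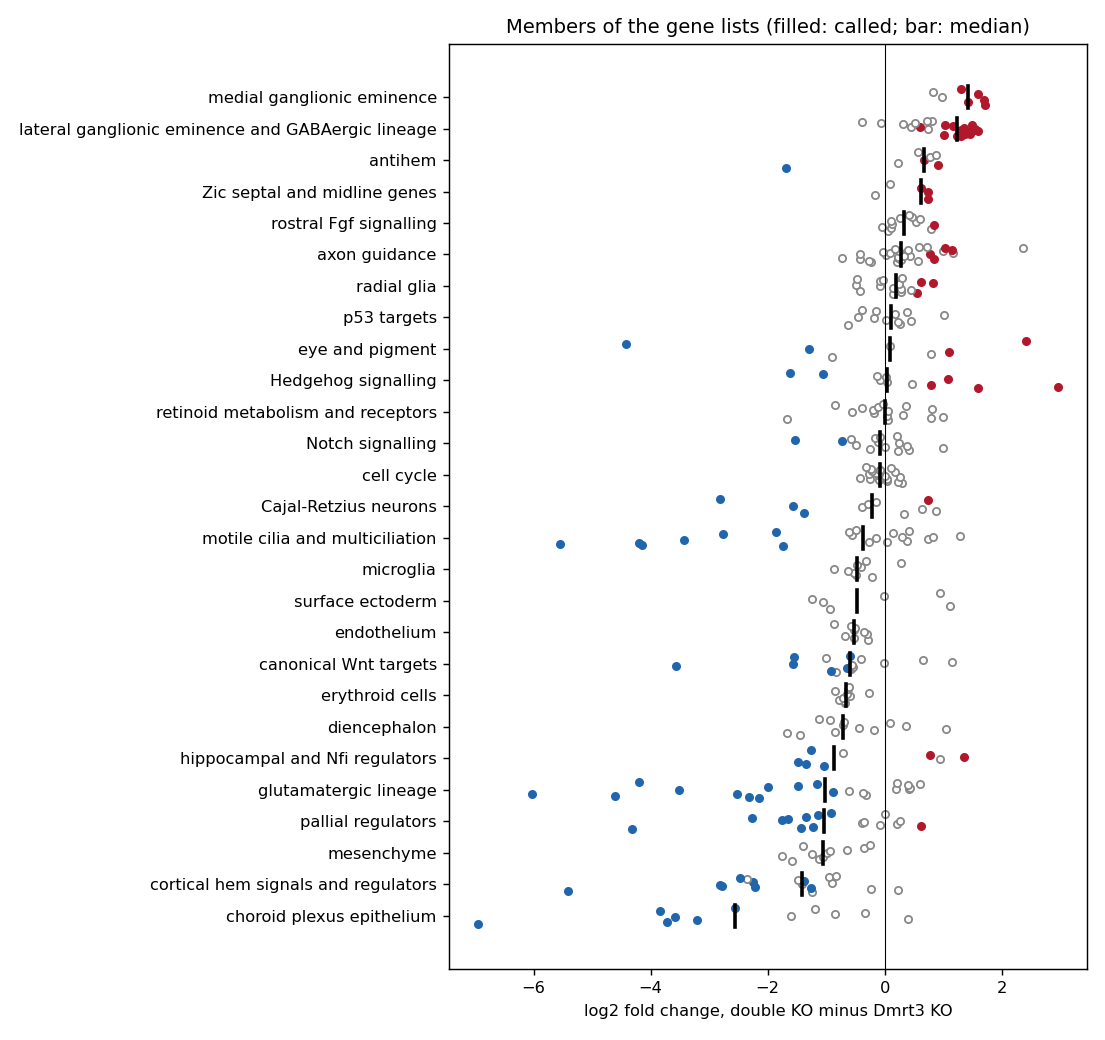
Log2 fold change, double KO minus Dmrt3 KO, of each tested member of 27 gene lists, ordered by their median (bar), with called genes filled (red higher, blue lower). Medians ran from 1.41 in the medial ganglionic eminence list to -2.55 in the choroid plexus list, beside 0.01 over all tested genes.

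The Nfi factors, which time the maturation of cortical progenitors and shape the hippocampus, fell together. Nfix, Nfib and Nfia averaged 55.1 ± 8.08, 102 ± 36.8 and 76.2 ± 22.6 CPM in the double KO, against 154 ± 17.6, 258 ± 49.3 and 156 ± 28 CPM in Dmrt3 KO (log2 -1.48, -1.34 and -1.03, adjusted p 0.000829, 0.00214 and 0.0041). No group overlap was seen in any of the 3. In the list of hippocampal and Nfi regulators, 4 of 8 tested genes fell and 2 rose (median -0.87); the rise of Prox1, a homeobox gene of the dentate gyrus and of interneurons (log2 1.35, adjusted p = 0.026), was lost without Dmrt3 KO replicate 1, 4 or 5 or double KO replicate 5 (0.0545 to 0.087). The Zic genes of septum and midline moved the other way, with 3 of 5 higher (median 0.61). Over all tested genes 1.74% rose and 1.96% fell, the background for both lists. Zic1 averaged 451 ± 43.5 CPM in the double KO and 270 ± 55.7 CPM in Dmrt3 KO (log2 0.74, adjusted p = 0.00348), with reads shared with its overlapping neighbour Zic4. The call of Zic4 (log2 0.61, adjusted p = 0.0301) was lost without any 1 of Dmrt3 KO replicates 1 to 4 or double KO replicate 1, 3 or 5 (0.0501 to 0.0888), and the number of Zic genes called ran from 1 to 3 over the libraries left out.

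Among signalling pathways, Hedgehog genes changed in both directions. Of 11 tested genes 4 rose and 2 fell (median 0.04), against 1.74% and 1.96% of all tested genes. The ligand Shh and the feedback genes Ptch1 and Hhip, which the pathway induces and which dampen it, were among the higher ones, whereas the ligand-binding co-receptors Gas1 and Cdon were lower. The third co-receptor gene, Boc, and the target gene Gli1 were not called (log2 -0.14 and 0.47, adjusted p 0.666 and 0.348). Gas1 averaged 90.4 ± 39.8 CPM in the double KO and 276 ± 59.9 CPM in Dmrt3 KO (log2 -1.61, adjusted p = 0.000385), and Cdon 71.8 ± 19 and 149 ± 17.3 CPM (log2 -1.05, adjusted p = 0.00882). Hhip averaged 3.28 ± 0.427 CPM in the double KO and 1.55 ± 0.414 CPM in Dmrt3 KO (log2 1.07, adjusted p = 0.0066). With the mesenchyme covariate none of the 4 rises was called (adjusted p of 0.104 for Hhip, 0.335 for Shh and 0.482 for Ptch1), and Cdon was not called (0.0822); without Dmrt3 KO replicate 5, 2 rises were called. Ptch1, the Hedgehog receptor, had the largest rise of the named genes, the size of which rested on 1 library, with 8.17, 10.3, 5.96, 7.71 and 73.2 CPM in the double KO, against 3.55, 2.39, 2.86, 2.85 and 1.81 CPM in Dmrt3 KO. The groups did not overlap (log2 2.97 ± 0.69, adjusted p = 0.0202), and the call was lost without double KO replicate 5 (log2 1.58, adjusted p = 0.0717) or Dmrt3 KO replicate 4 or 5 (0.0516 to 0.0717) and with the replicate block (0.0792).

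Over all tested genes 1.74% rose and 1.96% fell, the background for the counts of each list in this paragraph. In the Notch pathway the target genes Hey1 and Hey2 were lower (log2 -0.73 and -1.54, adjusted p 0.000288 and 0.0228) and the other 13 of 15 members were not called (median -0.07). The Hey2 call was lost without Dmrt3 KO replicate 4 or 5 or any double KO replicate other than 4 (0.0522 to 0.0669). In rostral Fgf signalling (median 0.34) 1 of 12 genes rose, Fgf3 (log2 0.84, adjusted p = 0.0497), a call lost without any 1 library other than double KO replicates 4 and 5 (0.0583 to 0.134). Of 16 radial glia genes 3 rose, Pax6, the SoxB1 gene Sox1 (log2 0.54, adjusted p = 0.00392) and the endothelin receptor Ednrb (log2 0.82, adjusted p = 0.018; lost without Dmrt3 KO replicate 1 or 5, 0.0523 and 0.0552), with a median of 0.20; with the mesenchyme covariate 0 of them were called. In axon guidance 4 of 27 genes rose (median 0.27): the midline attractant Ntn1 (141 ± 27.1 CPM in the double KO and 69.4 ± 4.88 CPM in Dmrt3 KO, adjusted p = 0.000132), the receptors Ephb1 and Plxnc1 (log2 0.77 and 0.83, adjusted p 0.00214 and 0.00994) and the Slit receptor Robo1 (log2 1.14, adjusted p = 0.0289). The Robo1 call was lost without double KO replicate 5, at 277 CPM the highest library, or Dmrt3 KO replicate 1, 3, 4 or 5 (0.0528 to 0.0947) and in the fit of the 10 libraries (0.0523), and with the mesenchyme covariate neither Robo1 (0.358) nor Plxnc1 (0.207) was called. In the eye and pigment list 2 of 7 genes rose and 2 fell. Dct, an enzyme of melanin synthesis that is also made in the medial telencephalon, fell to 0.34, 0.41, 0.36, 0.72 and 0.16 CPM in the double KO, against 8.94, 10.3, 7.7, 6.52 and 9.83 CPM in Dmrt3 KO (log2 -4.43 ± 0.29, adjusted p = 6.59e-08), a separation without overlap, and Mitf fell 2.47-fold (adjusted p = 0.00694; 0.126 with the mesenchyme covariate). Vax1, a ventral forebrain homeobox gene, rose 2.14-fold (adjusted p = 0.0142), a call lost with the mesenchyme covariate (0.104) and in the fit of the 10 libraries (0.0504).

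Several lists had no called gene in the edgeR fit. They were retinoid metabolism and receptors (16 tested, median 0.01), the cell cycle (20 tested, median -0.09), p53 targets (12 tested, median 0.10) and the diencephalon (12 tested, median -0.71). An unadjusted p under 0.05 was found for 5, 2, 2 and 5 members of these lists, beside 17.4% of all tested genes. DESeq2 called 1 retinoid gene and 1 p53 target. The proliferation marker Mki67 and the mitotic kinase gene Cdk1 had values of 0.30 and -0.25 (adjusted p 0.37 and 0.567), and Cdkn1a, a p53 target that stops the cell cycle, -0.63 (adjusted p = 0.101). Without double KO replicate 4, 3 diencephalic genes were called lower.

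Outside the lists, the largest rises were in genes of varied function, picked for a mean of 1 log2 CPM or more and for groups that do not overlap, so the lack of overlap is no further result. The urea transporter gene Slc14a1 averaged 11.1 ± 2.46 CPM in the double KO and 2.29 ± 0.889 CPM in Dmrt3 KO (log2 2.28, adjusted p = 0.000172). Gpr50, an orphan receptor related to melatonin receptors, averaged 5.56 ± 1.53 and 1.17 ± 0.511 CPM (log2 2.25, adjusted p = 0.000166), and the transcription factor gene Onecut3 7.6 ± 1.37 and 1.79 ± 1.04 CPM (log2 2.09, adjusted p = 0.00796). Th, the rate-limiting enzyme of dopamine synthesis, was at 38.3, 62.6, 48.2, 36.7 and 42.5 CPM in the double KO, against 10.5, 15.5, 11.5, 9.12 and 12.2 CPM in Dmrt3 KO (log2 1.96 ± 0.25, adjusted p = 0.000122). Col25a1, a transmembrane collagen of neurons, Slc7a11, the cystine-glutamate exchanger, and Slc30a3, a vesicular zinc transporter, rose by 1.92, 1.74 and 1.74 on the log2 scale (adjusted p 0.000172, 9.54e-06 and 1.97e-05). The kainate receptor subunit Grik3 averaged 193 ± 73.2 CPM in the double KO and 58.8 ± 11.5 CPM in Dmrt3 KO (log2 1.72, adjusted p = 0.000623), and Helt, a helix-loop-helix gene that promotes GABAergic fate in the midbrain, 17.2 ± 5.45 and 5.71 ± 1.8 CPM (log2 1.59, adjusted p = 0.0028; 0.0519 with the mesenchyme covariate). The transcript Dlx1as, which overlaps Dlx1 in antisense and whose reads cannot be separated from those of Dlx1 here, averaged 20.3 ± 10.9 CPM in the double KO and 6.26 ± 2.3 CPM in Dmrt3 KO (log2 1.70, adjusted p = 0.0148; 0.259 with the mesenchyme covariate).

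Some called changes were in genes of very high level. The imprinted genes Meg3, a long non-coding RNA, and Peg10, derived from a retrotransposon, averaged 682 ± 274 and 457 ± 123 CPM in the double KO, against 329 ± 49.1 and 213 ± 39.1 CPM in Dmrt3 KO (2.07-fold and 2.14-fold, adjusted p 0.0301 and 0.000736). Double KO replicate 5 was the highest library for both, and the Meg3 call was lost without it or without any 1 Dmrt3 KO library (0.0503 to 0.0892). Sfrp1, a secreted Wnt antagonist, fell to 311 ± 57.7 CPM in the double KO, against 555 ± 86.5 CPM in Dmrt3 KO (log2 -0.84, adjusted p = 0.000824), Id4, an inhibitor of helix-loop-helix factors, to 232 ± 22.4 CPM, against 372 ± 29.9 CPM (log2 -0.68, adjusted p = 0.000156), and the immunoglobulin-family gene Igsf8 to 167 ± 42 CPM, against 322 ± 60.9 CPM (log2 -0.95, adjusted p = 0.0039). These 3 genes did not overlap between groups. The ephrin gene Efnb1 fell by 0.54 (adjusted p = 0.0191), a call lost without Dmrt3 KO replicate 1, 3 or 4 (0.056 to 0.059). Called rises had a greater total exon length per gene than called falls, with medians of 5406 and 3264 bases, beside 4151 bases over all tested genes. A length slope was fitted in each library to the log2 CPM of genes relative to their mean over the 18 libraries. It thus describes a departure from the average library. Double KO replicate 5 had the steepest slope of these 10 libraries, 0.43 log2 CPM per log2 base against -0.18 to 0.08 in the other 9. With that slope as a covariate, 258 of the 282 rises and 309 of the 318 falls remained called.

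The loss of Dmrt5 could also be read with Dmrt3 present, as Dmrt5 KO against WT, 2 groups that share no library with the comparison above. There 55 genes were higher (0.339%) and 112 lower (0.69%), together 1.03% of the tested genes. The genes called in both backgrounds numbered 40 rises, which is 14.2% of the rises without Dmrt3 and 72.7% of those with it, and 77 falls (24.2% and 68.8%), and no gene was called in opposite directions. Of the 282 rises 264 (93.6%) and of the 318 falls 283 (89%) had the same sign in Dmrt5 KO against WT, beside 48.9% of all tested genes. The change was larger without Dmrt3 for 262 of the rises and 287 of the falls, with a median log2 fold change of 1.01 against 0.57 for the rises and -1.44 against -0.76 for the falls. These genes were chosen for their change without Dmrt3, so a smaller value elsewhere is no result by itself, and the difference was tested gene by gene as an interaction, the change without Dmrt3 minus the change with it on the log2 scale.

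The interaction was called for 23 genes (0.142%), all negative, and 22 of them were among the 318 falls. No gene had a called positive interaction in edgeR. Of the 16236 tested genes, 1497 had an unadjusted p under 0.05 in either direction, and DESeq2 called 66 positive and 61 negative. The negative ones were led by the glutamatergic lineage: 8 of 20 members of that list and 4 of 16 pallial regulators were among them. Nhlh1 averaged 12.8 CPM in the double KO and 73.7 CPM in Dmrt3 KO, but 50.7 CPM in Dmrt5 KO and 70 CPM in WT, an interaction of -2.06 ± 0.21 (SE, adjusted p = 0.000235). Neurog2 stood at 203, 169.6, 199 and 245 CPM in Dmrt5 KO, against 289.5, 167, 246 and 248 CPM in WT, so that those groups overlapped, and its interaction was -2.05 ± 0.23 (adjusted p = 0.000328). Emx1 stood at 106, 65.2, 59.2 and 64.3 CPM in Dmrt5 KO, against 139.8, 180.0, 179 and 113 CPM in WT (log2 -1.05, adjusted p = 0.0603), and its interaction was -3.26 ± 0.35 (adjusted p = 0.000328). The double KO values of both genes given above lay below every one of these. Slc17a7, Eomes, Neurod1, Neurod2 and Neurod6 had interactions of -2.76, -1.87, -1.95, -3.75 and -5.16 (adjusted p 0.000465, 0.00107, 0.00286, 0.00595 and 0.00554).

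In some interaction genes the mean was higher in Dmrt5 KO than in WT, with a call for Dmrta2os alone. Tfap2c averaged 96.7 CPM in Dmrt5 KO and 72.8 CPM in WT (log2 0.41, adjusted p = 0.346), and its interaction was -1.75 ± 0.23 (adjusted p = 0.00134). Dbx1 averaged 10.2 CPM in Dmrt5 KO and 7.67 CPM in WT, Nrn1 70.6 and 53.1 CPM, and Tfap2e, another AP-2 gene, 14.2 and 6.28 CPM, with interactions of -2.11, -1.57 and -3.21 (adjusted p 0.00554, 0.00286 and 0.00904). Prr15, which encodes a proline-rich protein, was the 1 interaction gene called in both backgrounds, at 2.32 ± 0.443 CPM in the double KO and 20.1 ± 1.32 CPM in Dmrt3 KO (log2 -3.12, adjusted p = 6.81e-09), and at 4.6 CPM in Dmrt5 KO and 14 CPM in WT (log2 -1.61, adjusted p = 0.000173). The interaction of Dmrt1 was -1.50 (adjusted p = 0.0265), with means of 2.6 CPM in Dmrt5 KO and 3.32 CPM in WT, so Dmrt3 KO had the highest mean of the 4 genotypes. The interactions of Gcg, Tmem163, Actr3b, Neurog1, Cldn1, Ism2, Tacr3 and Sv2b were -4.05, -1.27, -1.38, -1.77, -3.32, -2.21, -2.31 and -2.94. Dmrta2os, the antisense RNA beside Dmrta2, was at 12.2 CPM in the double KO and 17 CPM in Dmrt3 KO (not called, adjusted p = 0.0789). It rose to 20 CPM in Dmrt5 KO, against 12.6 CPM in WT (log2 0.67, adjusted p = 0.0497), and its interaction was -1.15. Of the 23 interaction calls, 15 were kept whichever of the 18 libraries was left out; Actr3b was lost without 6 of them, Neurog1 and Cldn1 without 10, Dmrt1, Sv2b, Dmrta2os and Tacr3 without 12 and Ism2 without 13. For the rises of the subpallial lists no interaction was called, and neither for any hem, choroid plexus or cilia gene, which does not show that those changes are equal in both backgrounds.

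**Figure D5:**
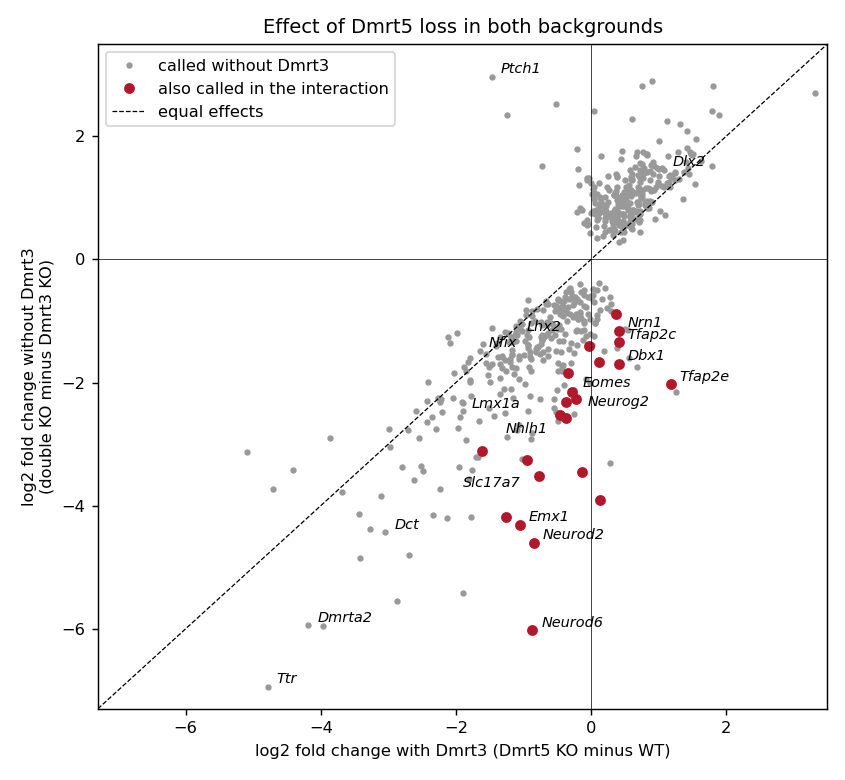
Log2 fold change on loss of Dmrt5 for each gene called without Dmrt3, with Dmrt3 present on the horizontal axis (Dmrt5 KO minus WT) and without Dmrt3 on the vertical axis (double KO minus Dmrt3 KO), with equal changes on the dashed line. Red points are genes also called in the interaction, such as Neurod6 at -0.87 and -6.03, and all of them lie below the line.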

How the data were processed

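The deposited files hold raw read counts per Ensembl gene for each library, with no normalisation by the authors. Total RNA was extracted with an RNeasy mini kit and made into libraries with TruSeq RNA Sample Prep Kit v2, per the labels' protocols; the kit does not mark strand, so reads of genes that overlap on opposite strands cannot be separated. The tools named in the submitters' processing notes are STAR 2.3.0e, featureCounts 1.4.6-p1, DESeq2 1.8.2, FastQC 0.10.1, CASAVA 1.8.2 and bcl2fastq, with build mm10. How strand and multiply matching reads were counted is not given in the sources used here.

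From the deposited counts, genes were filtered with filterByExpr, which left 16236 of 38355, libraries were scaled by TMM, and edgeR 4.0.16 (R 4.3.3, limma 3.58.1) was used to fit 1 quasi-likelihood model with genotype as the factor to the 18 libraries. All tests were two-sided, and p-values were adjusted with the Benjamini-Hochberg method over all tested genes. "Rose" and "fell" are used of genes with an adjusted p under 0.05. CPM values use the TMM factors and are given per library or as mean ± SD; they are not divided by gene length, so levels of different genes are not compared. Fold changes are fitted ones, and the SE on the log2 scale follows from the fold change and its F statistic. Symbols and coordinates come from GENCODE M21 (GRCm38, the assembly of mm10), which matched 36602 gene identifiers; the others held 0.397% of counts. Promoter sequences are RefSeq's. The fits were first tested on simulated counts with known changes. No pair of libraries agreed within sampling noise, so none was treated as a duplicate.

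The comparison, the 27 gene lists and the rule for naming genes were chosen with earlier results of these data known. The rule named the Dmrt genes and 14 regulators, at most 12 called genes in each direction by size of change (mean log2 CPM of at least 1, no overlap between groups), up to 4 members of each list with the lowest adjusted p, up to 5 interaction genes in each direction, and the 5 called genes in each direction with the highest level. Other genes named, such as Dmrt1, Tbr1, Rnd2, Dlx5, Gad2, Lhx6, Kcne2, Bmp6 and the uncalled members, were chosen after their values were seen. Some genes of the lists are counted but not reported here by name. The alternatives tried were DESeq2 1.42.0, other scaling, no filter on low counts, a fit of 10 libraries, a block for replicate number, covariates for inferred sex, mesenchyme score and length slope, and leaving out each library. Both sexes were present in each group, by inference 2 male and 3 female in the double KO and 3 male and 2 female in Dmrt3 KO.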

Additional observations from a re-analysis of the deposited data

Results flagged for a closer look

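In 36 of 318 groups of 4 or 5 libraries, 1 library lay far from the other libraries of its genotype, many of these groups sharing libraries; chance alone would flag about 1 in 20 groups. Double KO replicate 5 was set apart in 11 genes. It was the highest library for Pax6 (459 CPM), Eomes (62.3 CPM), Ptch1 (73.2 CPM, the next at 10.3 CPM), Robo1 (277 CPM), Meg3 (1155 CPM), Peg10 (676 CPM), Tbr1 (195.6 CPM), Bhlhe22 (10.5 CPM), Sox5 (90.7 CPM), Slc17a6 (59.4 CPM) and Nhlh2 (54.3 CPM). It also had the lowest mesenchyme score, 1.06, and the steepest length slope, 0.43; their part in these values was not tested.

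Double KO replicate 4, the library of its group with the most mesenchyme transcript, stood highest in 9 genes: Wnt3a (0.72 CPM), Gmnc (0.51 CPM), Hey2 (6.09 CPM), Lef1 (45.3 CPM), Bmp6 (1.87 CPM), Cldn1 (1.62 CPM), Bmp4 (16.6 CPM), Msx1 (70.8 CPM) and Msx2 (10.6 CPM). Double KO replicate 1 stood highest for Ttr (4.65 CPM) and Neurod6 (6.02 CPM) and lowest for Gpr50 (2.89 CPM) and Trp73 (6.55 CPM). Among the Dmrt3 KO libraries, replicate 2 stood highest for Nfib (344 CPM), Nfia (205 CPM), Dlx5 (102 CPM) and Lhx6 (102 CPM) and lowest for Efnb1 (344 CPM), replicate 1 highest for Emx1 (236 CPM), replicate 4 lowest for Nkd1 (61.9 CPM) and replicate 5, the library of that group with the most mesenchyme transcript, lowest for Meg3 (242 CPM) and highest for Msx1 (105 CPM) and Msx2 (33.1 CPM). Dmrt5 KO replicate 1 stood highest for Emx1 (106 CPM), and WT replicate 3 highest for Ism2 (4.19 CPM).

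For 23 genes the change on loss of Dmrt5 without Dmrt3 differed from the change with Dmrt3 by the interaction test, always towards a lower value without it. The differences on the log2 scale were -2.06 for Nhlh1, -3.26 for Emx1, -2.05 for Neurog2, -2.76 for Slc17a7, -1.87 for Eomes, -1.75 for Tfap2c, -1.57 for Nrn1, -1.95 for Neurod1, -2.11 for Dbx1, -1.51 for Prr15, -4.05 for Gcg, -5.16 for Neurod6, -3.75 for Neurod2, -1.27 for Tmem163, -3.21 for Tfap2e, -1.38 for Actr3b, -1.77 for Neurog1, -1.50 for Dmrt1, -3.32 for Cldn1, -2.21 for Ism2, -2.31 for Tacr3, -2.94 for Sv2b and -1.15 for Dmrta2os. Gcg had a mean of 0.0605 CPM in the double KO and 0.99 CPM in Dmrt3 KO, so its difference rests on few counts.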

How the results depend on the processing

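The quasi-likelihood fit of 18 libraries called 282 genes higher and 318 lower in the double KO, and 0 positive and 23 negative interactions. DESeq2 gave 505 and 471, with 66 and 61 interactions. The fit of the 10 libraries gave 148 and 210, the mesenchyme covariate 89 and 201, and the length slope covariate 395 and 507, with 1 positive interaction. Leaving out 1 library gave 167 to 555 higher, 229 to 882 lower, 0 to 7 positive and 15 to 31 negative interactions. The 882 came without double KO replicate 4, the 7 without WT replicate 2 and the 15 without Dmrt3 KO replicate 3, Dmrt5 KO replicate 1 or Dmrt5 KO replicate 5. Without double KO replicate 4 and Dmrt3 KO replicate 5 together, a setting chosen after seeing the data, 330 were higher and 592 lower. Other scaling, no filter on low counts and inferred sex left all counts within 1.5 times. The causes were not tested.

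Same-numbered libraries of the double KO and Dmrt3 KO did not deviate together in a consistent way (r of 0.52, 0.19, -0.33, 0.14 and -0.49 for replicates 1 to 5 over 2000 genes). Only replicate 2 correlated best with its own number. With the replicate number as a block, 274 genes were higher and 396 lower, with 29 negative interactions.

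Of 104 called genes followed by name, 71 stayed called under all alternatives, 83 without any 1 library, and 31 were lost with the mesenchyme covariate. Dmrta1, at 0.00 in the fit of 18 libraries, was -0.013 in the fit of 10 libraries, -0.006 with the block, -0.003 with sex, -0.087 with the length slope and between -0.13 and 0.119 without 1 library. Gli3, at -0.09, ran from -0.268 to 0.016 without 1 library, above 0 without double KO replicate 1 or 2. With the mesenchyme covariate the uncalled Bcl11b and Reln turned to -0.101 and -0.049, and with the length slope Cdk1 turned to 0.025. The uncalled Boc was called with the length slope (-0.361, adjusted p = 0.0332). Axin2 was called with DESeq2, the replicate block and the length slope (adjusted p 0.0341, 0.00529 and 0.00243). So was Cdkn1a (adjusted p 0.0471, 0.0261 and 0.0285). Slc17a6 was called with the mesenchyme covariate (-1.077, adjusted p = 0.0308) and the length slope (-0.935, adjusted p = 0.00249). Beside the losses given above, the fit of 10 libraries lost Wnt8b, Nrg1, Nkd1, Id2, Cacna2d2, Fgf3, Hey2, Ednrb, Zic4, Efnb1, Lef1 and Prox1 (adjusted p from 0.0553 for Cacna2d2 to 0.154 for Lef1), and the mesenchyme covariate Hey2 (0.0846), Prox1 (0.472), Cacna2d2 (0.535), Efnb1 (0.166), Meg3 (0.475), Lef1 (0.472), Nrg1 (0.801) and Fgf3 (0.224). Wnt3a and Gmnc rest on few counts in the double KO; the part of read depth was not tested.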
